A study of Homo sapiens with 12 samples.

Results

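The genes described here are the matrix metalloproteinases MMP1, MMP2, MMP3, MMP9, MMP13 and MMP14 and the tissue inhibitors of metalloproteinases TIMP1, TIMP2 and TIMP3. A gene was taken where a probe set carried exactly 1 gene symbol equal to its name. All 9 genes were found, by 10 such probe sets, out of 17958 genes on the array. TIMP3 had 2 probe sets, and the one with the higher mean over the 12 arrays was used.

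The cells were 231BR, a brain-tropic derivative of the human breast cancer line MDA-MB-231 that carried EGFP. The 12 arrays fall into 4 groups of 3. They are named here estradiol with astrocytes (10 nM estradiol, E2, in culture with mouse astrocytes), estradiol alone (10 nM estradiol, no astrocytes), vehicle with astrocytes (vehicle, OH, with mouse astrocytes) and vehicle alone (vehicle, no astrocytes). The EGFP-positive tumour cells were sorted after 24 h of co-culture, and by its title the study asks how estrogen acts on these cells through astrocytes. Every group is therefore 1 cell line, and only the co-culture arrays come from cells that had been beside cells of another species. Whether the replicates came from separate cultures is not stated, so the spread between arrays behind each p-value may be technical. Of 5 genes known to be high in MDA-MB-231 cells, VIM, CD44, CAV1 and AXL were among the brightest on the 6 arrays without astrocytes, while S100A4 lay between percentiles 40.4 and 45.3 of all genes there. ESR1, which encodes estrogen receptor alpha, lay between percentiles 19.3 and 23.0 in estradiol alone and between 20.4 and 25.8 in vehicle alone. It is 1 of 5 genes listed as low in this line. On the 6 arrays without astrocytes PGR lay between percentiles 5.86 and 10.1 and CDH1 between 18.4 and 24.3. EPCAM lay between 57.4 and 64.1 there and ERBB2 between 57.6 and 64.3, above the middle of all genes.

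Matrix metalloproteinases are secreted or membrane-bound zinc proteases that cut collagens and other proteins of the extracellular matrix. They are made as inactive precursors and are switched on by other proteases, and TIMPs block them by binding in the active site. In brain metastasis they are studied for their part in crossing the blood-brain barrier and remodelling the matrix around tumour cells. Protease activity was not measured here, only mRNA signal.

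Promoter sequence from RefSeq (GRCh38.p14) was matched for 3 of the 9 genes, and the 250 bases before the gene start are shown because MMP14 was called lower in co-culture under estradiol, with the inhibitors TIMP1 and TIMP3, which were not called, beside it. Capitals mark the GC box GGGCGG or its reverse complement CCGCCC, the letters bound by SP1-type factors, counted without overlap on both strands. MMP14 is read at chr14:22836335-22836584, TIMP1 at chrX:47582186-47582435 and TIMP3 at chr22:32801455-32801704, all on the plus strand.
MMP14: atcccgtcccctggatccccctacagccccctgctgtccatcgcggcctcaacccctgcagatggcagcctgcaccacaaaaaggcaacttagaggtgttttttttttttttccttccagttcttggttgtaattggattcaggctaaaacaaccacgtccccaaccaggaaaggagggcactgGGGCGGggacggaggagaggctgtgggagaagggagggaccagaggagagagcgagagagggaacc
TIMP1: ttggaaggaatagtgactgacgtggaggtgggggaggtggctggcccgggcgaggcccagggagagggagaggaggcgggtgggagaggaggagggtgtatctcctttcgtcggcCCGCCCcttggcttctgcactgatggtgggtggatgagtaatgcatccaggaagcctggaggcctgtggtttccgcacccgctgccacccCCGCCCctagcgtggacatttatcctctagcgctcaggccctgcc
TIMP3: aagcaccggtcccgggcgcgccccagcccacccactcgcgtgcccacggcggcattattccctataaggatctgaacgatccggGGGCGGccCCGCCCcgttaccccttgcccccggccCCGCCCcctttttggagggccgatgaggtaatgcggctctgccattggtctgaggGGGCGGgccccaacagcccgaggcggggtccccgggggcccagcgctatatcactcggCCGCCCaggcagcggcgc
The window of MMP14 held 1 GC box and 56.8% G or C, that of TIMP1 held 2 and 64.8%, and that of TIMP3 held 5 and 72.4%. A GC box occurs in 42.6% of the 35116 promoter windows of this length. The exact AP-1 consensus TGAGTCA (reverse complement TGACTCA) is in none of these windows and in 4.2% of all. Sites that differ from it by 1 letter, such as TGAGTAA in the TIMP1 window, were not counted. A match or its absence describes these letters only.

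Signal covered a narrower range in the co-culture groups, which bears on the astrocyte comparisons. The SD of all log2 signals on an array was 2.10, 1.62 and 1.96 in estradiol with astrocytes (replicates 1, 2 and 3), 2.12 to 2.20 in estradiol alone, 2.04, 1.82 and 1.95 in vehicle with astrocytes and 2.04 to 2.22 in vehicle alone. Replicate 2 of estradiol with astrocytes correlated across genes with the mean of vehicle alone at r = 0.606 and replicate 2 of vehicle with astrocytes at 0.866, against 0.911 or more for every other array. With all genes split by mean signal into 4 classes of equal size, the median log2 difference in co-culture under estradiol was 0.48, 0.43, −0.38 and −0.74, from the dimmest class to the brightest. MMP1, MMP14, TIMP1, TIMP2 and TIMP3 lie in the brightest class, MMP2, MMP3 and MMP9 in class 2 and MMP13 in the dimmest. The part of this narrowing in the results was not tested, and the members' astrocyte differences are also given with the array SD as a covariate in the fit. In bulk RNA, fewer cells of a type and less RNA per cell cannot be told apart.

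Astrocyte co-culture under estradiol is the comparison in which members passed the test. MMP1 and MMP14 were lower in estradiol with astrocytes than in estradiol alone, 2.71-fold and 1.65-fold, and MMP9 was 2.03-fold higher (limma, adjusted p from 0.0475 to 0.0479 over all genes). These are 3 of the 9 genes, against 13.2% of all 17958 genes called in this comparison, 5.03% higher and 8.15% lower. The 9 genes had a median log2 difference of −0.69, against 0.07 over all genes. It was −0.74 in the brightest signal class of all genes, which holds MMP1, MMP14, TIMP1, TIMP2 and TIMP3. For 7 of the 9 genes the arrays of one group all lay on one side of the other's, 3 higher and 4 lower, against 50.9% of all genes (27.0% higher, 23.9% lower).

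**Figure D1:**
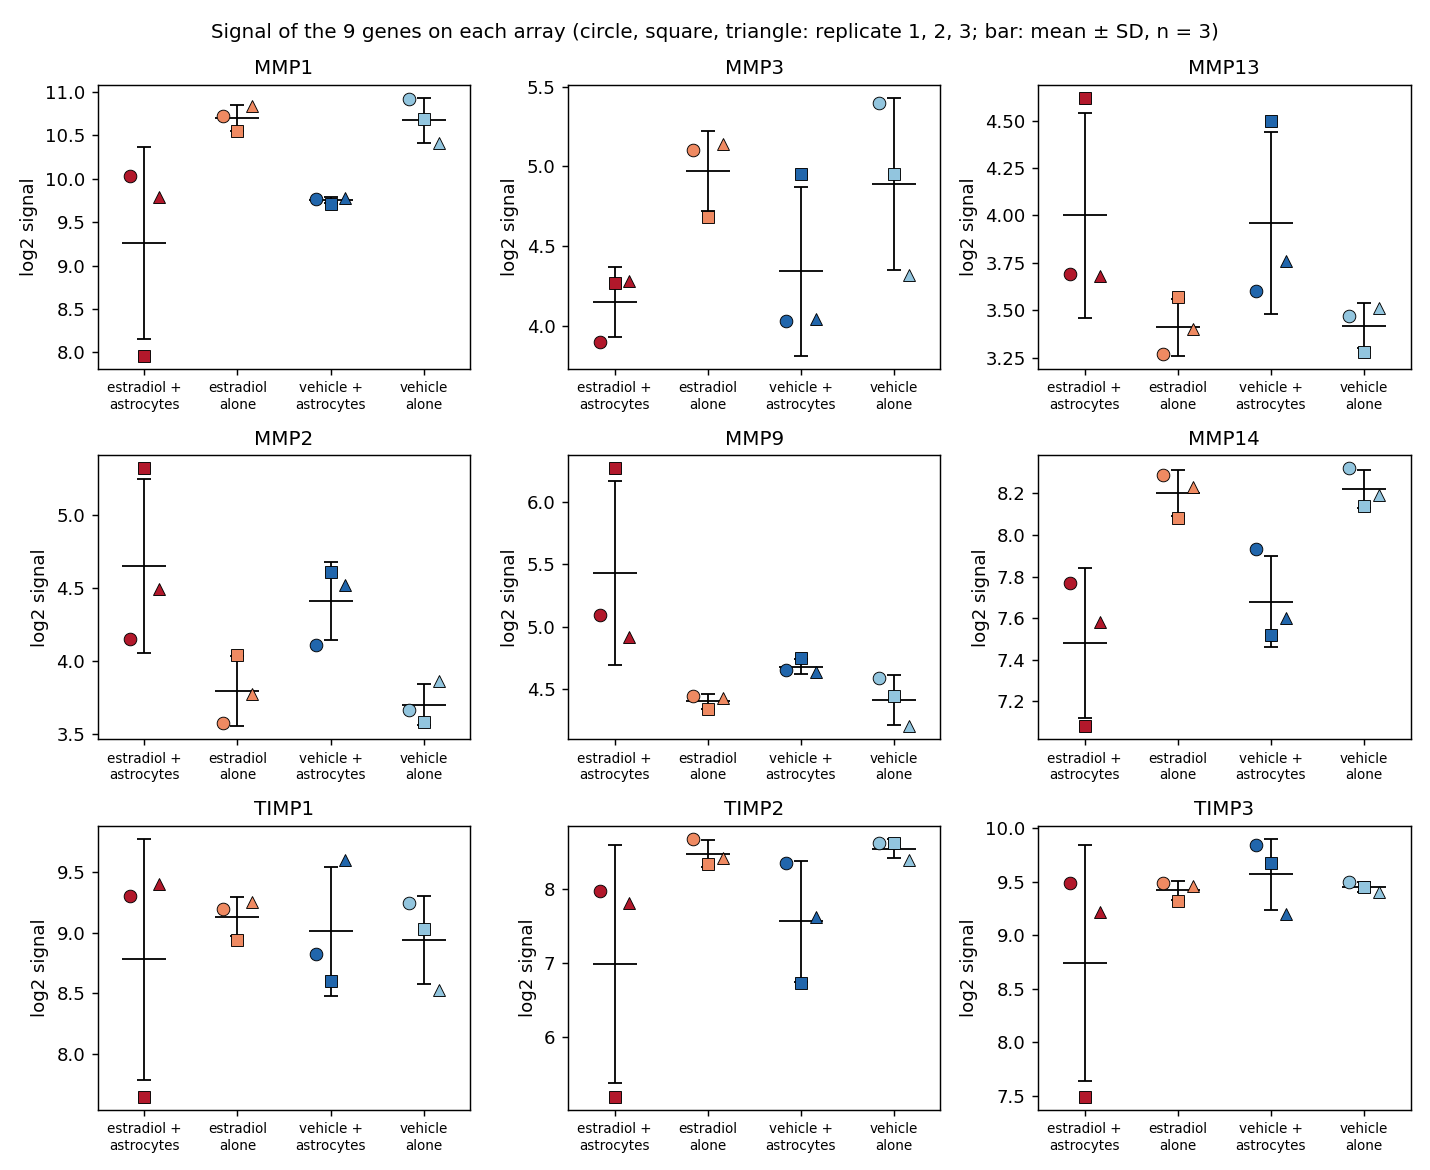
Log2 signal of each gene (y axis, a scale of its own per panel) on each of the 12 arrays, by group (x axis), with marker shape for the replicate and the mean ± SD (n = 3) as bars. MMP1 and MMP14 sit lower and MMP2 higher with astrocytes than without under both treatments. The square of estradiol with astrocytes stands apart in MMP1, MMP9, TIMP1, TIMP2 and TIMP3. It is also the highest of its group in MMP2 and MMP13 and the lowest in MMP14.

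MMP1 is the interstitial collagenase, which cuts fibrillar collagen. Its log2 signal (probe set 7951271) was 10.03, 7.96 and 9.79 in estradiol with astrocytes, against 10.72, 10.55 and 10.84 in estradiol alone. Every co-culture array was below every array of estradiol alone, and replicate 2 was far below the other two. The difference was −1.44 (SE 0.43, adjusted p = 0.0478 in limma). Without replicate 2 of estradiol with astrocytes it was −0.79 (adjusted p = 0.0506), and with the array SD as a covariate −0.43 (adjusted p = 0.35).

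Under vehicle, MMP1 had log2 signals of 9.77, 9.71 and 9.78 with astrocytes, against 10.92, 10.69 and 10.41 alone. These groups did not overlap either, and the 3 co-culture arrays lay close together, with an SD of 0.036. The difference of −0.92 (SE 0.43) did not pass over all 12 arrays (limma, adjusted p = 0.18). It was −0.90 with an adjusted p of 0.041 once replicate 2 of both astrocyte groups was left out, and −0.15 (adjusted p = 0.725) with the array SD as a covariate. MMP1 was bright throughout, at percentile 98.1 or above of all genes on every array.

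MMP3, stromelysin-1, cuts a wide range of matrix proteins and helps to activate the precursor of MMP1. Its log2 signal (probe set 7951284) was 3.90, 4.27 and 4.28 in estradiol with astrocytes, against 5.10, 4.68 and 5.14 in estradiol alone. The groups did not overlap, replicate 2 did not stand apart, and the difference of −0.82 (SE 0.32) missed the threshold (limma, adjusted p = 0.0807). The sign is opposite to the median of its own signal class. Its place among all genes was percentile 26.5 to 32.6 in estradiol with astrocytes, against 42.9 to 49.8 in estradiol alone. With the array SD as a covariate the difference was −0.93 (adjusted p = 0.16), and over the alternatives tried it kept its sign, at most −0.69.

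Under vehicle, MMP3 had log2 signals of 4.03, 4.95 and 4.04 with astrocytes, against 5.40, 4.95 and 4.32 alone. These groups overlapped, and the difference was −0.55 (limma, adjusted p = 0.253), or −0.63 with the array SD as a covariate.

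MMP13, collagenase-3, cuts type II collagen in particular. Its log2 signal (probe set 7951309) was 3.69, 4.62 and 3.68 in estradiol with astrocytes, against 3.27, 3.57 and 3.40 in estradiol alone, a difference of 0.58 (limma, adjusted p = 0.144). Under vehicle it was 3.60, 4.5 and 3.76 with astrocytes, against 3.47, 3.28 and 3.51 alone, a difference of 0.53 (adjusted p = 0.238). Neither pair of groups overlapped, and replicate 2 was the highest co-culture array in both. Without that replicate of estradiol with astrocytes the first difference was 0.27 (adjusted p = 0.461), and without that of vehicle with astrocytes the second was 0.26 (adjusted p = 0.639). With the array SD as a covariate they were −0.05 and 0.06.

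MMP9 is gelatinase B, which cuts denatured collagen and the type IV collagen of basement membranes. Its log2 signal (probe set 8063115) was 5.09, 6.27 and 4.92 in estradiol with astrocytes, against 4.44, 4.34 and 4.43 in estradiol alone. All 3 co-culture arrays were above all 3 arrays of estradiol alone, with replicate 2 the highest by more than 1 log2 unit. The difference was 1.02 (SE 0.30, adjusted p = 0.0475 in limma). It was 0.60 (adjusted p = 0.0635) without replicate 2 of estradiol with astrocytes, 0.60 (adjusted p = 0.0451) without replicate 2 of both astrocyte groups, and 0.52 (adjusted p = 0.286) with the array SD as a covariate.

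Under vehicle, MMP9 had log2 signals of 4.65, 4.75 and 4.64 with astrocytes, against 4.59, 4.44 and 4.20 alone. The groups did not overlap, but the gap was small, and the difference of 0.27 (SE 0.30) did not pass (limma, adjusted p = 0.521). It was −0.11 with the array SD as a covariate.

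MMP2 is gelatinase A, whose precursor is activated at the cell surface by MMP14 together with TIMP2. Its log2 signal (probe set 7995681) was 4.15, 5.32 and 4.49 in estradiol with astrocytes, against 3.57, 4.04 and 3.77 in estradiol alone, and the groups did not overlap. The difference was 0.86 (SE 0.29) and missed the threshold (limma, adjusted p = 0.0591), and was 0.53 (adjusted p = 0.137) without replicate 2 of estradiol with astrocytes. Under vehicle it was 4.11, 4.61 and 4.52 with astrocytes, against 3.66, 3.58 and 3.86 alone, again without overlap, with a difference of 0.71 (adjusted p = 0.146). With the array SD as a covariate both differences were 0.22.

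MMP14 is the membrane-type protease that activates MMP2 and cuts collagen at the cell surface. Its log2 signal (probe set 7973336) was 7.77, 7.08 and 7.58 in estradiol with astrocytes, against 8.29, 8.08 and 8.23 in estradiol alone. The highest co-culture array lay below the lowest array of estradiol alone. The difference was −0.72 (SE 0.21, adjusted p = 0.0479 in limma). It was −0.52 without replicate 2 of estradiol with astrocytes (adjusted p = 0.0939), −0.33 with the array SD as a covariate (adjusted p = 0.256) and −0.19 after quantile normalization (adjusted p = 0.367).

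Under vehicle, MMP14 had log2 signals of 7.93, 7.52 and 7.60 with astrocytes, against 8.32, 8.14 and 8.19 alone. The groups did not overlap, and the difference of −0.53 (SE 0.21) did not pass (limma, adjusted p = 0.145), and was −0.24 with the array SD as a covariate. Its place among all genes overlapped between the groups, at percentiles 89.2 to 94.1 in estradiol with astrocytes and 91.9 to 92.6 in estradiol alone, and at 90.6 to 93.3 in vehicle with astrocytes and 91.6 to 93.9 in vehicle alone.

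None of the 3 inhibitors passed the test in any comparison. TIMP2, which both inhibits MMP2 and takes part in its activation, had log2 signals (probe set 8018966) of 7.97, 5.20 and 7.81 in estradiol with astrocytes, against 8.67, 8.33 and 8.41 in estradiol alone. The groups did not overlap, and replicate 2 lay more than 2 log2 units below the other co-culture arrays. The difference was −1.48 with an SE of 0.62 (limma, adjusted p = 0.0931), −0.58 without replicate 2 of estradiol with astrocytes and 0.10 with the array SD as a covariate. Under vehicle TIMP2 had 8.34, 6.73 and 7.62 with astrocytes, against 8.62, 8.61 and 8.39 alone, with no overlap, replicate 2 lowest and a difference of −0.98 (adjusted p = 0.285). It was −0.56 without that replicate of vehicle with astrocytes and 0.22 with the array SD as a covariate.

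TIMP1, a secreted inhibitor of most metalloproteinases, had log2 signals (probe set 8167185) of 9.30, 7.65 and 9.40 in estradiol with astrocytes, against 9.19, 8.94 and 9.25 in estradiol alone. Replicates 1 and 3 of the co-culture were above all 3 arrays of estradiol alone and replicate 2 was below them. The difference was −0.34 (limma, adjusted p = 0.52), 0.23 without that replicate and 0.61 with the array SD as a covariate. Under vehicle TIMP1 had 8.82, 8.60 and 9.60 with astrocytes, against 9.24, 9.03 and 8.53 alone, a difference of 0.07 (adjusted p = 0.912), which was 0.80 (adjusted p = 0.0901) with the array SD as a covariate and 0.27 without replicate 2 of vehicle with astrocytes. Leaving out replicate 3 of vehicle with astrocytes or of vehicle alone turned its sign, to −0.23 and −0.13.

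TIMP3, the inhibitor that stays bound to the matrix, had log2 signals (probe set 8072626) of 9.49, 7.49 and 9.22 in estradiol with astrocytes, against 9.49, 9.32 and 9.46 in estradiol alone. Here too only replicate 2 was far from the other group. The difference was −0.69 (limma, adjusted p = 0.201), −0.07 without that replicate and 0.22 with the array SD as a covariate. The second probe set of TIMP3 (8075635) gave −0.68. Under vehicle TIMP3 had 9.84, 9.67 and 9.20 with astrocytes, against 9.50, 9.45 and 9.40 alone, a difference of 0.12 (adjusted p = 0.846), and −0.05 by the second probe set. With the array SD as a covariate it was 0.81 (adjusted p = 0.0826).

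**Figure D2:**
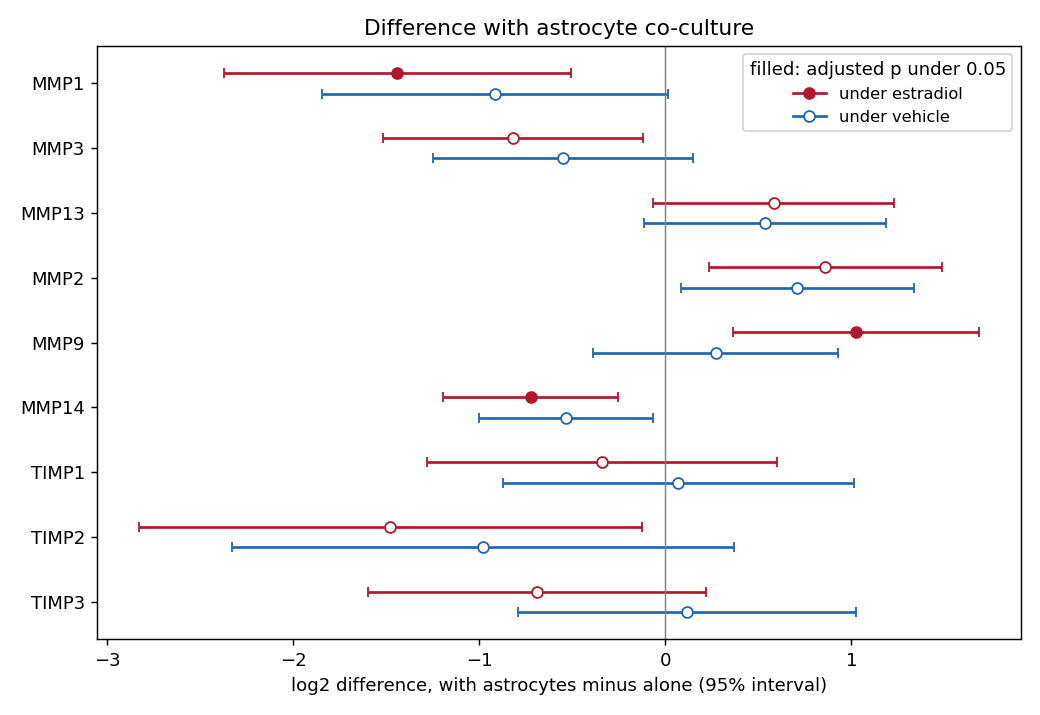
Log2 difference with astrocytes minus alone (x axis) for each of the 9 genes, under estradiol (red) and under vehicle (blue), with limma's 95% interval as bars and filled points where the adjusted p is under 0.05. Only MMP1, MMP9 and MMP14 under estradiol are filled.

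Under vehicle, 0 of the 9 genes passed in limma, against 0.0557% of all genes (10 genes). At an unadjusted p under 0.05 there were 2, MMP2 higher and MMP14 lower, against 28.2% of all genes (13.1% higher, 15.1% lower). Arrays did not overlap for 6 of the 9 genes, 3 higher and 3 lower, against 41.8% of all genes (23.4% higher, 18.4% lower). The median log2 difference of the 9 genes was 0.07, against 0.06 over all genes. Without replicate 2 of estradiol with astrocytes, an array that enters only through the shared spread, 4 were called (MMP1, MMP2, MMP14 and TIMP2), where 34.0% of all genes were. MMP1, MMP3, MMP14 and TIMP2 had negative differences and MMP2, MMP9 and MMP13 positive ones under both treatments, while TIMP1 and TIMP3 differed in sign.

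**Figure D3:**
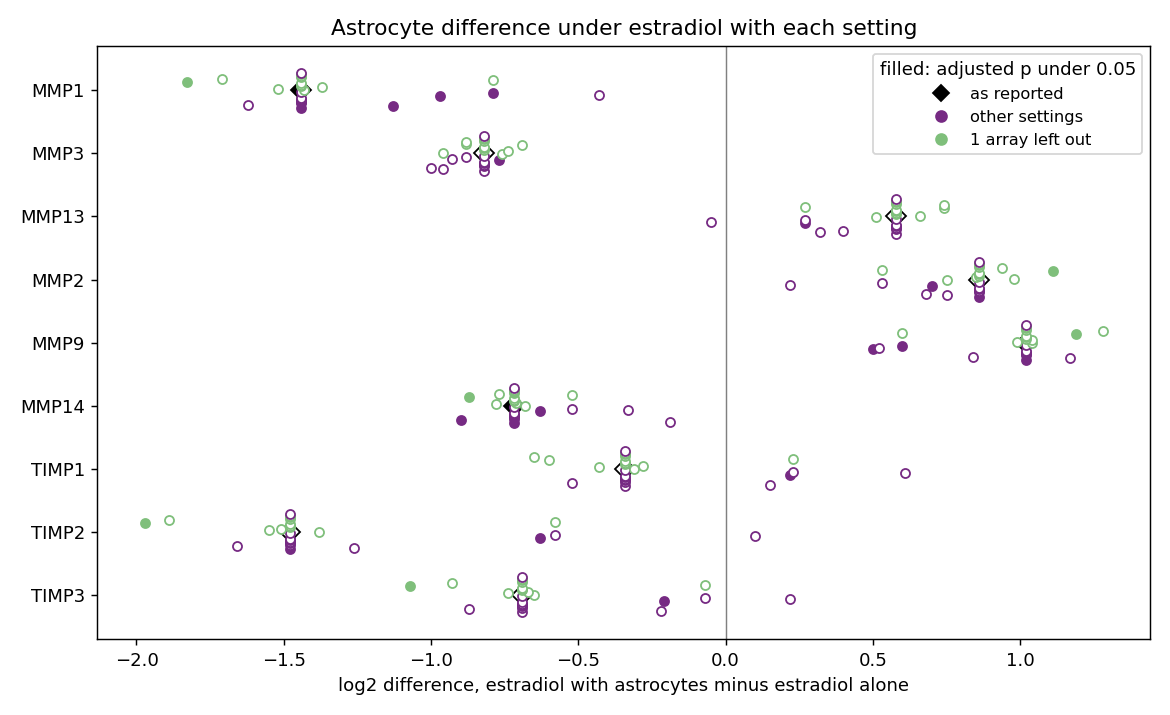
Log2 difference of estradiol with astrocytes minus estradiol alone (x axis) for each gene as reported (diamond), with 1 array left out (green) and under the other settings (purple), filled where the adjusted p is under 0.05. MMP1, MMP3 and MMP14 stay below 0 and MMP2 and MMP9 above 0 at every setting, TIMP1, TIMP2, TIMP3 and MMP13 cross it, and most points of MMP1, MMP9 and MMP14 are unfilled.

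The 3 calls lay just inside the threshold and depended on most of the 12 arrays. No member was called without replicate 2 or 3 of estradiol with astrocytes, any array of estradiol alone, replicate 2 or 3 of vehicle with astrocytes, or any array of vehicle alone. The count over all genes fell as well, to between 3 and 1843 of 17958 in these fits, with 3, 3 and 5 without replicate 1, 2 or 3 of estradiol alone. The count of members was 1 (MMP14) without replicate 1 of vehicle with astrocytes, where 15.2% of all genes were called. It was 6 (MMP1, MMP2, MMP9, MMP14, TIMP2 and TIMP3) without replicate 1 of estradiol with astrocytes, where 51.4% of all genes were called. Fitting only the 6 arrays compared gave 0, with 0 calls over all genes as well. The largest adjusted p with 1 array left out was 0.16 for MMP1, 0.16 for MMP9 and 0.169 for MMP14.

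None of the 9 genes passed limma's test between estradiol and vehicle. Without astrocytes, 0 of 9 passed and 0 had an unadjusted p under 0.05, against 0% and 0.00557% of all genes. The differences of estradiol alone minus vehicle alone ran between −0.07 (TIMP2) and 0.19 (TIMP1), and the arrays of both groups overlapped for every gene, where 3.21% of all genes did not. MMP1, for example, averaged 10.70 ± 0.15 in estradiol alone and 10.67 ± 0.26 in vehicle alone (SD, n = 3 each). Its difference of 0.03 had a 95% interval of −0.90 to 0.96 before adjustment, so these arrays do not exclude a change inside that range.

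With astrocytes present, 0 of 9 genes passed between estradiol and vehicle, against 0% of all genes. MMP9 averaged 5.43 ± 0.74 in estradiol with astrocytes and 4.68 ± 0.062 in vehicle with astrocytes (SD, n = 3 each), and its lowest estradiol array (4.92) was above the highest vehicle array (4.75). It was the 1 member without overlap, against 2.18% of all genes (1.36% higher). It was also the 1 member with an unadjusted p under 0.05, against 0.791% of all genes. The log2 difference of 0.75 had a 95% interval of 0.09 to 1.41 before adjustment, and limma's adjusted p was 1.00. It was 0.36 without replicate 2 of both groups. The lowest difference was that of TIMP3, −0.83, which rests on replicate 2, and the groups overlapped.

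The interaction asks whether the astrocyte difference under estradiol differs from that under vehicle. It was called for 0 of the 9 genes, against 0% of all genes, and 0 members had an unadjusted p under 0.05, against 0.173% of all genes. Its values ran between −0.81 (TIMP3) and 0.75 (MMP9, SE 0.43, unadjusted p = 0.104, limma's adjusted p = 1.00). The calls of MMP1, MMP9 and MMP14 under estradiol and not under vehicle are therefore not shown to differ between the treatments. With 3 arrays a group, the smallest two-sided p of an exact permutation test is 0.1, so none was run on single genes.

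Each protease was also set against each inhibitor within an array, which was chosen after the values had been seen and is given with no test. Signals of different probe sets have no common scale, so only the change of such a log2 difference between groups can be read. MMP1 minus TIMP1 was 0.73, 0.31 and 0.39 in estradiol with astrocytes, against 1.53, 1.61 and 1.59 in estradiol alone. Under vehicle it was 0.95, 1.12 and 0.18 with astrocytes, against 1.68, 1.66 and 1.87 alone. In both pairs every co-culture array lay below every array without astrocytes, by −1.10 under estradiol and −0.99 under vehicle on average, and replicate 2 did not stand apart. Without replicate 2 of the co-culture groups the changes were −1.02 and −1.17.

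MMP1 minus TIMP3 changed in the same direction, by −0.75 under estradiol and −1.03 under vehicle, both without overlap. MMP1 minus TIMP2 changed by 0.04 and 0.06, with overlap. MMP9 minus TIMP1 was −4.21, −1.37 and −4.49 in estradiol with astrocytes, against −4.75, −4.61 and −4.82 in estradiol alone. The groups did not overlap, and the mean change was 1.37, and 0.37 without replicate 2. MMP2 minus TIMP2 changed by 2.34 under estradiol and 1.69 under vehicle, without overlap in either, and by 1.11 and 1.17 without replicate 2.

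MMP14 minus TIMP2, the pair that acts together on the MMP2 precursor, changed by 0.75 under estradiol with overlapping groups, and by 0.06 without replicate 2. Over the 18 pairs of 6 proteases and 3 inhibitors, 5 were higher without overlap in co-culture under estradiol, 2 were lower and 11 overlapped. Under vehicle 3 were higher, 3 lower and 12 overlapped. No other gene pairs were counted, so these counts have no share of all pairs beside them and are given as a description. Of single genes, 50.9% did not overlap under estradiol and 41.8% under vehicle. The class medians alone differ in the direction of the higher pairs. Under estradiol they were 0.43 for the class of MMP2 and MMP9 and −0.74 for that of the inhibitors. Both lower pairs under estradiol were those of MMP1 with TIMP1 and TIMP3, and 3 of the 5 higher ones were those of MMP9.

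**Figure D4:**
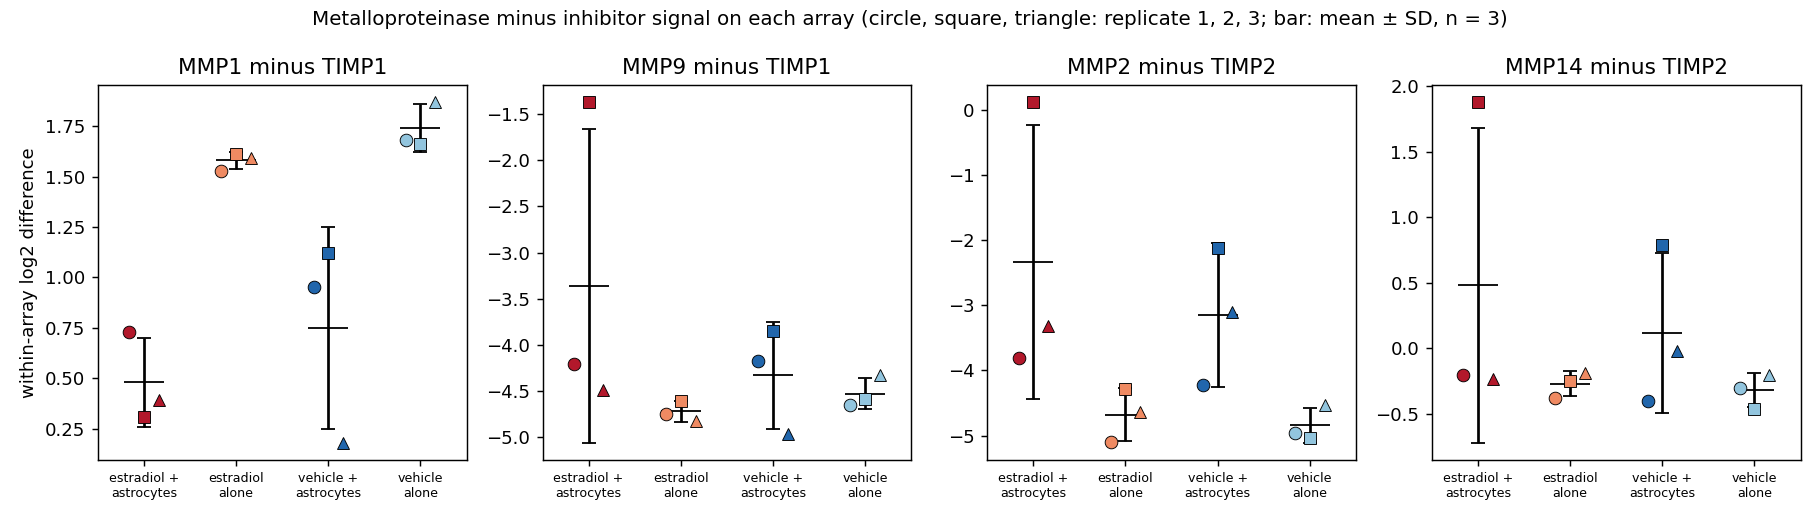
Log2 signal of a protease minus that of an inhibitor on the same array (y axis, a scale of its own per panel) by group (x axis), with marker shape for the replicate and the mean ± SD (n = 3) as bars. MMP1 minus TIMP1 lies between 0.18 and 1.12 on the 6 co-culture arrays and between 1.53 and 1.87 on the other 6, while the square of estradiol with astrocytes is far above the rest of its group in the other 3 panels.

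MMP1, MMP3 and MMP13 lie on chromosome 11 in a run of 9 metalloproteinase genes with no other protein-coding gene between them in the RefSeq table (GRCh38.p14), in the order MMP7, MMP20, MMP27, MMP8, MMP10, MMP1, MMP3, MMP12 and MMP13. In co-culture under estradiol the differences of the neighbours MMP1 and MMP3 were −1.44 and −0.82. The other 7 were all positive, between 0.19 for MMP7 and 0.77 for MMP12. Under vehicle the neighbours had −0.92 and −0.55, and the other 7 lay between 0.02 for MMP10 and 0.63 for MMP27. Of the 7, MMP12, the macrophage elastase, rose under estradiol (adjusted p = 0.0388 in limma). Mean log2 signals were 10.1 for MMP1, 4.59 for MMP3 and between 2.35 and 3.70 for the other 7, and over the whole array the dimmer classes of genes had positive median differences in co-culture.

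**Figure D5:**
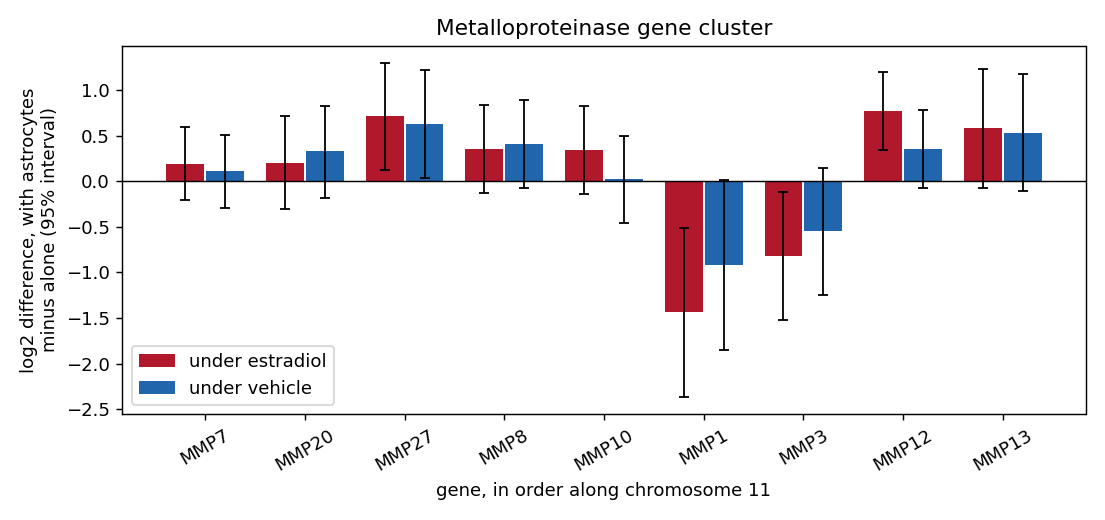
Log2 difference with astrocytes minus alone (y axis) under estradiol (red) and vehicle (blue) for the 9 metalloproteinase genes in their order along chromosome 11 (x axis), with limma's 95% interval as bars. MMP1 and MMP3 lie below 0 and the other 7 genes at or above it.

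Among 16 other metalloproteinases on the array, 1 rose in co-culture under estradiol (MMP12), none fell, and all 16 differences were positive, with a median of 0.45 against 0.07 over all genes. The median was 0.48 in the dimmest signal class of all genes and 0.43 in class 2, with 89.8% and 69.6% of differences positive. MMP12, MMP27, MMP24 and MMP21 were dim, with mean log2 signals of 2.05, 2.62, 3.83 and 3.16 in estradiol alone. MMP27, MMP24 and MMP21 had 0.71, 0.74 and 0.71 and did not pass (limma, adjusted p from 0.0760 to 0.0811). Under vehicle 0 passed, where 0.0557% of all genes did. The median was 0.34, against 0.06 over all genes, 0.34 in the dimmest class and 0.31 in class 2.

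Of 17 measured genes that activate, inhibit or take up these proteases, 1 rose and 1 fell under estradiol, a share near the 13.2% of all genes called, with a median of −0.19 against 0.07 over all genes. PLG, which encodes plasminogen, the precursor of the protease plasmin, rose by 1.11 (adjusted p = 0.0351). Its signal was low, with log2 means of 3.37 in estradiol alone and 4.48 in estradiol with astrocytes. The dimmest signal class of all genes and class 2 had median differences of 0.48 and 0.43. ITGAV, the integrin alpha V subunit, fell by 2.13 on the log2 scale (adjusted p = 0.0380 in limma). CD44, a surface receptor that can hold MMP9 at the membrane, had −1.14 and did not pass (adjusted p = 0.0519), with −0.63 without replicate 2 of estradiol with astrocytes. The inhibitor A2M had 0.61 (adjusted p = 0.110). Under vehicle 0 of 17 passed, against 0.0557% of all genes.

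Of 13 measured ADAM and ADAMTS genes, proteases related to the metalloproteinases, 4 fell and 0 rose under estradiol, where 8.15% of all genes fell and 5.03% rose, with a median of −0.49 against 0.07 over all genes. ADAMTS1 and ADAMTS9, which cut proteoglycans, had −1.77 (adjusted p = 0.0271) and −1.62 (adjusted p = 0.0351) in limma. The membrane sheddases ADAM10 and ADAM17 had −2.38 (adjusted p = 0.0470) and −1.79 (adjusted p = 0.0494), but −1.49 and −1.19 without replicate 2 of estradiol with astrocytes, where neither passed. Under vehicle 0 passed, against 0.0557% of all genes, and ADAMTS1 and ADAMTS9 had −1.43 and −1.70 (limma, adjusted p = 0.0748 and 0.0763).

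AP-1 and ETS factors, listed here with RUNX2, are transcription factors well known to drive metalloproteinase genes. Of 16 measured, 6 fell and 1 rose under estradiol, where 8.15% of all genes fell and 5.03% rose. Their median of −0.74 stands against 0.07 over all genes and equals that of the brightest signal class. The falls were FOS (−1.10, adjusted p = 0.0282), FOSL2 (−1.38, 0.0294), ETS1 (−1.78, 0.0364), RUNX2 (−0.71, 0.0368), JUNB (−0.77, 0.0377) and ELK3 (−1.36, 0.0398), and ELK1 rose (0.90, 0.0400), all adjusted p in limma. FOSL1 and JUN had 0.26 and −0.54 and did not pass. Under vehicle 0 passed, against 0.0557% of all genes. The median was −0.52, and FOS had an adjusted p of 0.0716 in limma with a negative difference. Over the alternatives tried, FOS and FOSL2 were called in 17 of 25, against 8 of 25 for MMP1, 8 of 25 for MMP14 and 7 of 24 for MMP9.

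Of 16 measured matrix substrates, 2 fell and 0 rose under estradiol, a share near the 13.2% of all genes called, while the median was 0.53 against 0.07 over all genes. FBN1, the microfibril protein fibrillin-1, had −1.52 (adjusted p = 0.0332) and TNC, tenascin-C, had −1.61 (adjusted p = 0.0368) in limma. FN1, fibronectin, had −1.92 and BCAN, the brain proteoglycan brevican, 1.14, and neither passed (adjusted p = 0.0504 and 0.0519). Without replicate 2 of estradiol with astrocytes they had −1.13 and 0.70. Under vehicle 0 passed, against 0.0557% of all genes, with a median of 0.51. Of the genes called in these lists under estradiol, ADAM10 and ADAM17 were called in the fewest alternatives, 8 of 25 each, and ADAMTS1, FOS and FOSL2 in the most, 17 of 25 each. With the array SD as a covariate, ADAMTS1 (−1.16, adjusted p = 0.0133), FOS (−1.05, 0.0162) and FOSL2 (−0.98, 0.0380) still passed under estradiol. The other genes called in these lists did not, among them PLG (0.62, adjusted p = 0.0756), RUNX2 (−0.68, 0.0565), FBN1 (−1.03, 0.0634), MMP12 (0.46, 0.128), ADAM10 (−0.58, 0.307) and ADAM17 (−0.44, 0.377). In the same limma fit ADAMTS1 (−0.97, adjusted p = 0.0135), FOS (−0.96, 0.0145) and ADAMTS9 (−1.24, 0.0337) passed under vehicle, and FOSL2 (−0.58, 0.0828) did not. That fit called 2.61% of all genes under estradiol and 6.49% under vehicle.

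Likeness between genes was taken as Pearson's r over the 12 arrays, which share the groups and the range of signal, and is given as a description. The 3 genes most like MMP1 were ERRFI1 (r = 0.99), ARF1 (0.989) and CD44 (0.986). Those most like TIMP2 were STAT3 (0.996), TRIM8 (0.994) and CTNNA1 (0.994), and those most like MMP14 were UTP25 (0.993), NR1D2 (0.992) and SCAF4 (0.991). MMP9 was most like NLRC4 (0.967), OR8H3 (0.965) and ASPHD1 (0.957). MMP3 had the lowest first value, with ZNF331 (0.961), UVSSA (0.949) and WDR81 (0.926). The first-ranked genes of the others were TMEM72 for MMP2 (0.994), SLC26A11 for MMP13 (0.99), MRPL37 for TIMP1 (0.987) and SDF4 for TIMP3 (0.98).

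Marker genes of other cell types are set beside these results. In co-culture 13.2% of all genes were called under estradiol and 0.0557% under vehicle, and few markers were called. The astrocytes were mouse cells and the arrays carry probe sets for human genes. How far these signals follow RNA of the co-cultured cells was not tested. The mean log2 signal of 10 astrocyte markers ran from 5.15 to 5.26 in estradiol with astrocytes, 5.05 to 5.20 in estradiol alone, 5.06 to 5.25 in vehicle with astrocytes and 5.08 to 5.21 in vehicle alone. In co-culture under estradiol 0 of the 10 rose and 1 fell (SLC1A3, −0.97), and GFAP had 1.04 (limma, adjusted p = 0.0578). Of the 10, 5 had positive differences (GFAP, S100B, ALDH1L1, SLC1A2 and AQP4) and 5 negative ones (SLC1A3, GJA1, ALDOC, GLUL and SOX9). The mean of this list can therefore stay level while its genes move in opposite directions. For 9 measured markers of microglia and macrophages, cells known to make MMP9 and MMP12, the means were 4.11 to 5.14 in estradiol with astrocytes, 3.84 to 3.97 in estradiol alone, 4.18 to 4.64 in vehicle with astrocytes and 3.75 to 4.09 in vehicle alone. SPI1 rose in co-culture under estradiol, by 1.28 (adjusted p = 0.0438), and 8 of the 9 had positive differences under each treatment, with 0 called under vehicle. For 8 markers of fibroblasts and pericytes, cells known to make MMP2, the means were 3.75 to 4.44 in estradiol with astrocytes, 3.55 to 3.79 in estradiol alone, 3.85 to 4.27 in vehicle with astrocytes and 3.61 to 3.78 in vehicle alone, and 0 of 8 were called. The other lists had positive medians too. Under estradiol the median difference was 0.60 for microglia and macrophages, 0.36 for fibroblasts and pericytes, 0.78 for 4 oligodendrocyte markers, 0.61 for 4 neuron markers and 0.35 for 5 endothelial markers, with 0 called in the last 3. Over the whole array 89.8% of genes in the dimmest signal class and 69.6% in class 2 had positive differences. The part of RNA from such co-cultured cells in the values of MMP9, MMP12 and MMP2 was not tested.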

How the data were processed

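The data are single-colour Affymetrix Human Gene ST arrays of sorted tumour cells. Per the labels, biotin-labelled single-stranded DNA was hybridised, and the deposited signals are log2 values. RMA and Partek are named, per the submitters' processing notes, without version, role or order, so any further scaling is not given in the sources used here. Of 33297 probe sets, 21236 are named in the platform annotation, 19181 with 1 symbol and 2055 with several. Only those with 1 symbol were used, and for genes with several probe sets the one with the highest mean was taken, with no filter on low values. Arrays have no read depth, so their number limits the precision.

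Differences were tested by limma 3.58.1 under R 4.3.3 (lmFit with the 4 group means as coefficients, all 12 arrays together, then contrasts.fit and eBayes), two-sided, with Benjamini-Hochberg adjustment over 17958 genes and a threshold of 0.05. The pipeline was tested on simulated data. All 9 genes are named in each comparison, and of each other list the genes past the threshold and up to 4 with the smallest p. The genes, the lists and the tests were chosen with earlier results of these data known. The alternatives were another normalization, filter, probe set or threshold, other variance models, array weights, the array SD, the replicate number as a block, the compared groups alone and each array left out. The replicate block within the compared groups was added after seeing the data. Between the astrocyte groups, deviations of same-number arrays correlated at r = 0.789, 0.756 and 0.214, a pairing taken from the values. Arrays of unlike number reached r = 0.396 between the astrocyte groups, 0.253 between the estradiol groups and 0.595 between the vehicle groups. The other group pairs shared the pairing in part or not at all. For the estradiol groups the same-number r was 0.538, 0.485 and −0.0162, and for the vehicle groups 0.582, −0.436 and 0.0647. Between the groups without astrocytes it was 0.72, −0.493 and −0.0421, and arrays of unlike number reached 0.76 there.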

Additional observations from a re-analysis of the deposited data

How the results depend on the processing

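Counts of the 9 genes called changed with the processing, and so did the share of all genes called, given here in parentheses. In co-culture under estradiol (3 called, 13.2%) the count was 1 after quantile normalization (3.02%), 1 with arrays centred on their median (1974 genes), 1 with trend and robust options (2520 genes), 0 without moderation of the variance (0.696%), 0 with the array SD as a covariate (2.61%), 0 with the compared groups alone (0%), 6 at a threshold of 0.10 (39.8%) and 9 with array weights (82.3%), which did not converge fully. Leaving out 1 array gave 0 to 6. In co-culture under vehicle (0 called, 0.0557%) it was 1 without replicate 2 of both astrocyte groups (5.59%), 1 with the compared groups alone (8.88%), 6 with array weights (69.3%), and 0 to 4 with 1 array left out, the 4 (34.0%) without replicate 2 of estradiol with astrocytes. The other 3 comparisons gave 0 under every alternative run. Of all genes 0% were called there too, apart from array weights and, for estradiol against vehicle with astrocytes, the array SD (0.00557%). Array weights called 6.67% of all genes for estradiol against vehicle with astrocytes, 0.0445% without astrocytes and 3.61% for the interaction.

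With the replicate number as a block over all 12 arrays, 5 genes were called under estradiol (MMP1, MMP2, MMP9, MMP14 and TIMP2, where 37.3% of all genes were) and 0 under vehicle (14.4%). With the block and the compared groups alone the counts were 0 (0%) and 3 (26.1%). The block changed no call in the other comparisons it was run on.

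Some differences changed sign, none with a passing test before or after except TIMP1 with array weights. With the array SD as a covariate, under vehicle MMP9 was −0.11, TIMP2 0.22 and MMP21 −0.08, and under estradiol MMP13 was −0.05, TIMP1 0.61, TIMP2 0.10 and TIMP3 0.22. Centring gave −0.08 for TIMP1 and −0.03 for TIMP3 under vehicle, array weights −0.12 for TIMP3 under vehicle and 0.22 for TIMP1 under estradiol, and quantile normalization 0.15 for TIMP1 under estradiol and −0.05 for MMP21 under vehicle. Leaving out 1 array gave TIMP1 −0.23 to 0.27 and TIMP3 −0.02 to 0.30 under vehicle and TIMP1 −0.65 to 0.23 under estradiol, the last also 0.23 without replicate 2 of both astrocyte groups. The cause was not tested. Over 72 named gene results and 1764 alternatives, 1344 kept their sign and side of the threshold, 243 lost the call, 149 gained one, 18 changed sign and 10 values without a test moved. The filter for genes above the median level removed MMP2, MMP3, MMP9 and MMP13, and the compared groups alone give no interaction.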
